A study of Rattus norvegicus with 12 samples.

Results

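The mRNAs of 10 apolipoproteins were followed in fetal rat liver: Apoa1, Apoa2, Apoa4, Apoa5, Apob, Apoc1, Apoc2, Apoc3, Apoe and Apoh. The genes were read from the array probes that the platform annotation links to each of them, out of 14497 genes with a probe of 1 symbol. Each of the 10 had 1 probe, and all 10 lay above the filter on dim probes, among 10174 genes tested. Livers came from Sprague Dawley fetuses at embryonic day 19 of a 21-day gestation. Dams were fasted for 48 hr from day 17, a treatment that restricts fetal growth, or were fed freely. Total liver RNA and RNA from pooled polysome preparations, which hold mRNAs that carry several ribosomes, were each measured on arrays of their own (Affymetrix Rat Gene 1.0 ST). This gave 4 groups of 3 arrays: fasted total, fed total, fasted polysome and fed polysome, with 3 dams per diet. Whole livers were used, so that less RNA per cell and fewer cells of a type cannot be told apart.

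Apolipoproteins are the proteins that build lipoprotein particles and direct them in blood, and the liver and intestine are their main sources. ApoB is the large structural protein of very low density lipoprotein, and apoA-I and apoA-II are found on high density lipoprotein. The small apoC proteins and apoE move between particles and set how they are lipolysed and taken up. In rat, several of these genes lie side by side. In the RefSeq order (assembly GRCr8), Apoc2, the cofactor of lipoprotein lipase, Apoc4, Apoc1 and Apoe follow each other on chromosome 1, and Apoa1, Apoc3, Apoa4 and Apoa5 on chromosome 8. Apoa2 lies on chromosome 13, Apob on chromosome 6 and Apoh, a phospholipid-binding plasma glycoprotein, on chromosome 10.

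The promoter windows of Apoc2, Apoc1 and Apoe, the members in the cluster on chromosome 1, are shown. They describe the genes, and their part in any comparison below was not tested. The windows are the 250 bases before the first listed transcript start, from RefSeq on GRCr8, all on the minus strand, at chr1:88462366-88462615, chr1:88478306-88478555 and chr1:88485817-88486066. Capitals mark matches to the motifs searched, on either strand.
Apoc2: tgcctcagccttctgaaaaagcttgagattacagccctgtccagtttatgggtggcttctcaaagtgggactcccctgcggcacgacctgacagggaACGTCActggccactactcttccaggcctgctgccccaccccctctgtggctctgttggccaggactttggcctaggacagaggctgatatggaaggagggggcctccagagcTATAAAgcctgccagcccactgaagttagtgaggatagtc
Apoc1: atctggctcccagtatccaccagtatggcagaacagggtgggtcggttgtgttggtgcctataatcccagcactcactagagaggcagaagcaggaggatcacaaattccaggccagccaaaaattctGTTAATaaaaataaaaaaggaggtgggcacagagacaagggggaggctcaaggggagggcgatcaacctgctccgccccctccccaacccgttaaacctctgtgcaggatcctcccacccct
Apoe: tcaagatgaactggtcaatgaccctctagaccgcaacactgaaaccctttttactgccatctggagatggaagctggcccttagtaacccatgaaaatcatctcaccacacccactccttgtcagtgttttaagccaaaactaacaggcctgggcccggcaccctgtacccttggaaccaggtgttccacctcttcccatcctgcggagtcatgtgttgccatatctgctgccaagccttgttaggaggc
The motifs were TATAAA (the TATA box), AGGTCA (the core of nuclear receptor sites), CAAAGTCCA (an HNF4 site), GTTAAT (the core of HNF1 sites) and TGACGT (the core of cyclic AMP response elements), none of which holds another. Apoc2 had TATAAA at -40 to -35 and the reverse of TGACGT at -153 to -148, Apoc1 had GTTAAT at -122 to -117, and the Apoe window held none of the 5. Apoc1 had 2 listed windows and Apoe 3, of which only the first was searched, and that of Apoc1 lies inside its annotated gene. Such windows were listed for 6 of the 10 genes. Among these 6, TATAAA was in 2, against 12.9% of 33469 windows of all genes. GTTAAT was in 2, against 6.45%, AGGTCA in 1, against 14.1%, TGACGT in 1, against 6.95%, and CAAAGTCCA in 0, against 0.338%. A match describes these letters only. Apoa1, Apoa2, Apob and Apoc3 are the genes outside the 6.

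Array medians ran from 101.3 to 108.3 intensity units. Levels below are log2(intensity + 1), differences are in log2 units ± their standard error (SE) from limma, n = 3 arrays per group, and adjusted p is Benjamini-Hochberg's over all 10174 genes with a threshold of 0.05. The number of arrays limits the precision. Levels of different genes rest on different probes and are not compared. The largest member signal, that of Apoa1, reached 60.7% of the highest value on its array. Apoa5, an activator of triglyceride clearance, had group means from 6.15 to 6.39, close to the filter level of 6.07, so that its values say little. Markers of hepatocytes were bright: the mean level of 8 markers lay between 13.63 and 13.72 in fasted total and between 13.64 and 13.67 in fed total arrays, and at 13.47 to 13.48 in fasted polysome and 13.38 to 13.51 in fed polysome arrays. Of 4 enterocyte markers measured, Alpi and Cdx2 were below the filter level in every group, and Vil1 and Fabp2 were tested. Vil1 passed in no comparison, and Fabp2 was higher on polysomes, at 7.31 in fasted polysome against 6.44 in fasted total and 7.30 in fed polysome against 6.73 in fed total arrays (limma adjusted p = 0.00238 and 0.0284). The mean of 6 exocrine pancreas markers was higher in fed total than in fasted total arrays, and its range overlapped that of both polysome groups. The mean level of 6 lay at 6.28 to 6.35 in fasted total and 6.56 to 7.71 in fed total arrays, and at 6.46 to 6.69 in fasted polysome and 6.29 to 6.80 in fed polysome arrays. Prss1 and Pnlip were below the filter level in every group. For fasting in total RNA, Ctrb1 and Cel measured -1.80 ± 0.53 and -0.82 ± 0.33 log2 (limma adjusted p = 0.112 and 0.242). Cela1 hardly differed, at -0.02 ± 0.10 log2 (limma adjusted p = 0.96). Of the 4 tested, 1 passed for fasting, Cpa1 in total RNA (-1.98 ± 0.43 log2, limma adjusted p = 0.0486), and it was also lower on polysomes in fed dams (-1.79 ± 0.43 log2, limma adjusted p = 0.00459). The part of this RNA in the results below was not tested.

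**Figure D1:**
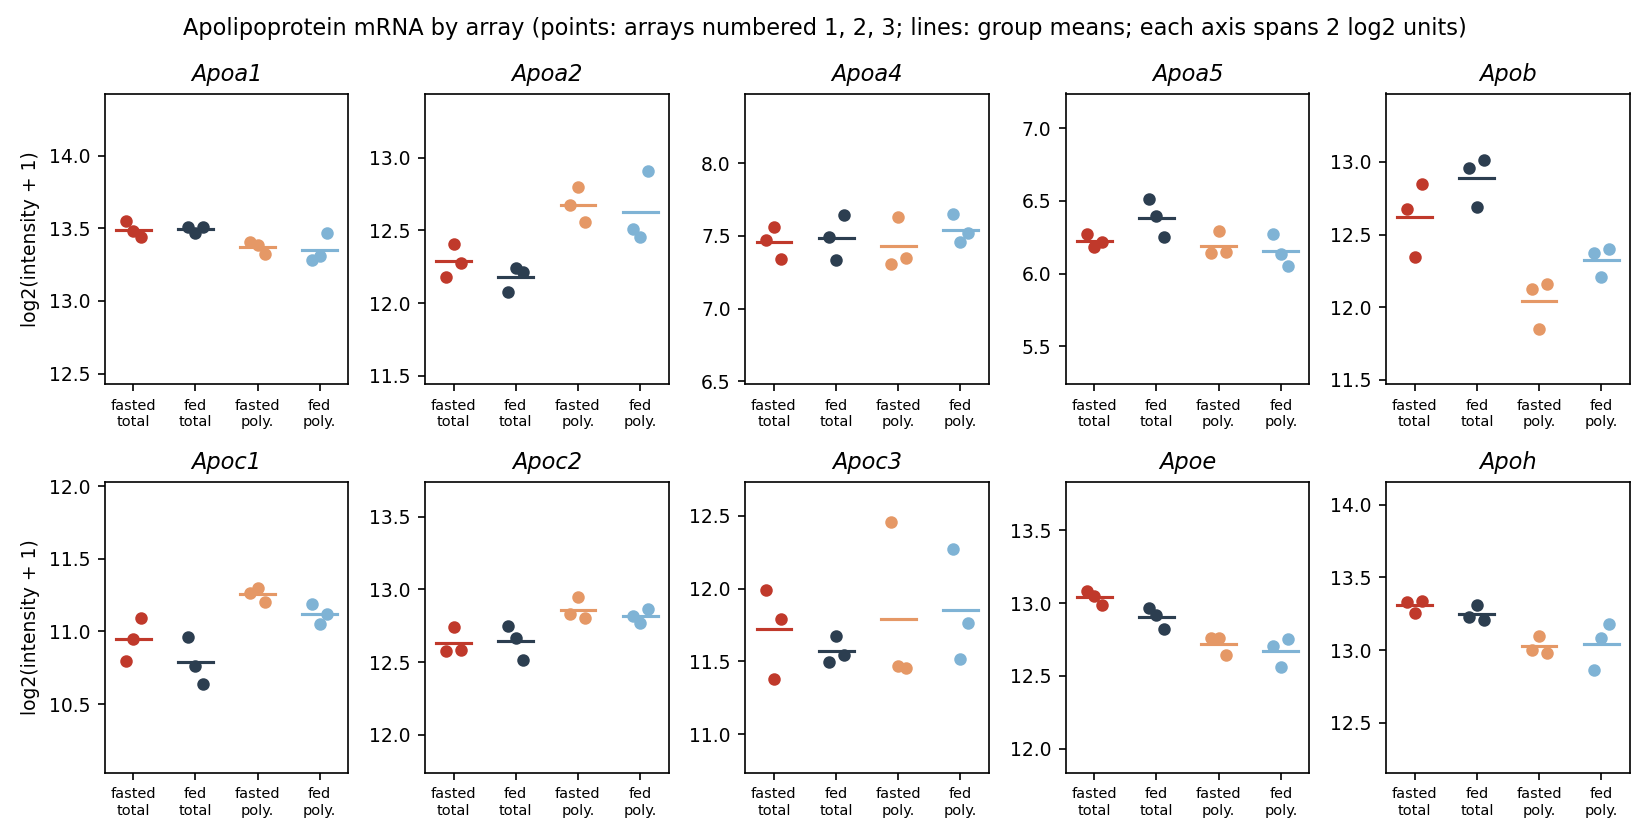
Levels of the 10 apolipoprotein mRNAs in every array as log2(intensity + 1), with fasted total, fed total, fasted polysome and fed polysome arrays from left to right, points for arrays and lines for group means. The colours of fasted and fed arrays interleave in most panels, while Apoa2 and Apoc1 sit higher and Apob and Apoe lower on polysomes than in total RNA.

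The first comparison asked whether maternal fasting altered apolipoprotein mRNA in total liver RNA. None of the 10 passed the limma test, against 1.03% of all genes (0.737% higher and 0.295% lower in fasted dams), and 0 had an unadjusted p under 0.05, against 16.2% of all genes. Their median difference was 0.03 log2, beside 0.0007 log2 over all genes, and 5 of the 10 differences were above 0. The 95% interval lay within 1.5-fold either way for 9 of the 10 genes and within 2-fold for all 10.

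Apoa1, the main protein of high density lipoprotein, gave the narrowest bound. It measured 13.55, 13.48 and 13.44 in fasted total arrays 1 to 3, and 13.51, 13.47 and 13.51 in fed total arrays 1 to 3. The groups overlapped, and the difference was -0.003 ± 0.070 log2, with a 95% interval of 0.899- to 1.11-fold (limma adjusted p = 0.989). Apoa2 measured 0.11 ± 0.11 log2 (limma adjusted p = 0.7). Apoa4, made largely by the intestine in adults, measured -0.03 ± 0.11 log2 (limma adjusted p = 0.924). Apoa5 measured -0.16 ± 0.086 log2 (limma adjusted p = 0.381).

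Apob had the lowest difference of the 10. It measured 12.68, 12.35 and 12.85 in fasted total arrays, and 12.96, 12.69 and 13.01 in fed total arrays. The lowest of the 6 arrays was a fasted one and the highest a fed one, but the groups overlapped. The difference was -0.26 ± 0.13 log2, with an interval of 0.686- to 1.01-fold (limma adjusted p = 0.346).

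Among the exchangeable proteins, Apoe measured 13.08, 13.05 and 12.99 in fasted total arrays, and 12.96, 12.92 and 12.82 in fed total arrays. Every fasted array was above every fed one, as for 12.9% of all genes in this direction, but the difference of 0.14 ± 0.075 log2 did not pass (limma adjusted p = 0.391). Macrophages also make Apoe. The mean level of 10 macrophage markers, all above the filter level in every group, was 9.17 to 9.45 in fasted total and 8.99 to 9.20 in fed total arrays. Of these 10, 0 passed in total RNA, 9 had a difference above 0, and their part in the Apoe values was not tested. Apoc1, an inhibitor of lipoprotein uptake, measured 0.16 ± 0.095 log2 (limma adjusted p = 0.453), Apoc2 measured -0.01 ± 0.081 log2 (limma adjusted p = 0.973), and Apoh measured 0.06 ± 0.083 log2 (limma adjusted p = 0.79).

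Apoc3, which slows triglyceride clearance, was the least precisely measured. It lay at 11.99, 11.38 and 11.79 in fasted total arrays, and at 11.50, 11.68 and 11.54 in fed total arrays. The fasted arrays spread on both sides of the fed ones. The difference was 0.15 ± 0.25 log2, and its interval, 0.762- to 1.61-fold, was the widest of the 10 (limma adjusted p = 0.829). This interval rests on the spread within all 4 groups. The SD was 0.31 log2 in fasted total and 0.093 in fed total arrays, and 0.57 in fasted polysome and 0.39 in fed polysome arrays.

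The second comparison asked the same of RNA on polysomes, the mRNA being translated. None of the 10 passed the limma threshold, against 2.01% of all genes (1.59% higher and 0.423% lower), and 1, Apob, had an unadjusted p under 0.05, against 20.9% of all genes. The median difference was 0.03 log2, beside 0.02 log2 over all genes, and 6 of the 10 were above 0. The interval again lay within 1.5-fold either way for 9 of the 10 and within 2-fold for all 10.

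Apob on polysomes measured 12.13, 11.85 and 12.16 in fasted arrays, and 12.37, 12.21 and 12.40 in fed arrays. Every fasted array was below every fed one, as for 8.38% of all genes in this direction. The difference was -0.28 ± 0.13 log2 (limma adjusted p = 0.238), with an interval of 0.676- to 0.999-fold, and it was close to the -0.26 log2 of total RNA. Only 2.87% of all genes had as low a difference on polysomes.

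Apoc1 was the other gene whose polysome groups did not overlap. It measured 11.27, 11.30 and 11.21 in fasted arrays, and 11.19, 11.05 and 11.12 in fed arrays. Fasted arrays were higher, as for 12.4% of all genes, yet the difference of 0.14 ± 0.095 log2 did not pass (limma adjusted p = 0.451).

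Apoc3 on polysomes measured 12.46, 11.47 and 11.45 in fasted arrays, and 12.27, 11.52 and 11.76 in fed arrays. In both diets the array numbered 1 stood apart above the other two. The difference was -0.06 ± 0.25 log2 (limma adjusted p = 0.921), and -0.18 log2 without both of these arrays, an omission chosen after seeing the data. The remaining 7 genes gave differences between -0.12 log2 for Apoa4 and 0.05 log2 for Apoa2, with limma adjusted p from 0.575 for Apoa4 to 0.938 for Apoh.

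The effect of fasting was also compared between fractions. Of the 10 genes, 0 passed by limma and 0 had an unadjusted p under 0.05, and over all genes 0% passed, with 549 genes (5.4%) under that unadjusted level. Differences between effects, polysome minus total, ran from -0.21 ± 0.35 log2 for Apoc3 to 0.20 ± 0.12 log2 for Apoa5 (limma adjusted p = 0.95 and 0.867). That for Apob was -0.02 ± 0.18 log2 (limma adjusted p = 0.992). The 2 fasting comparisons use different arrays, but total and polysome RNA of a number may come from the same livers.

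**Figure D2:**
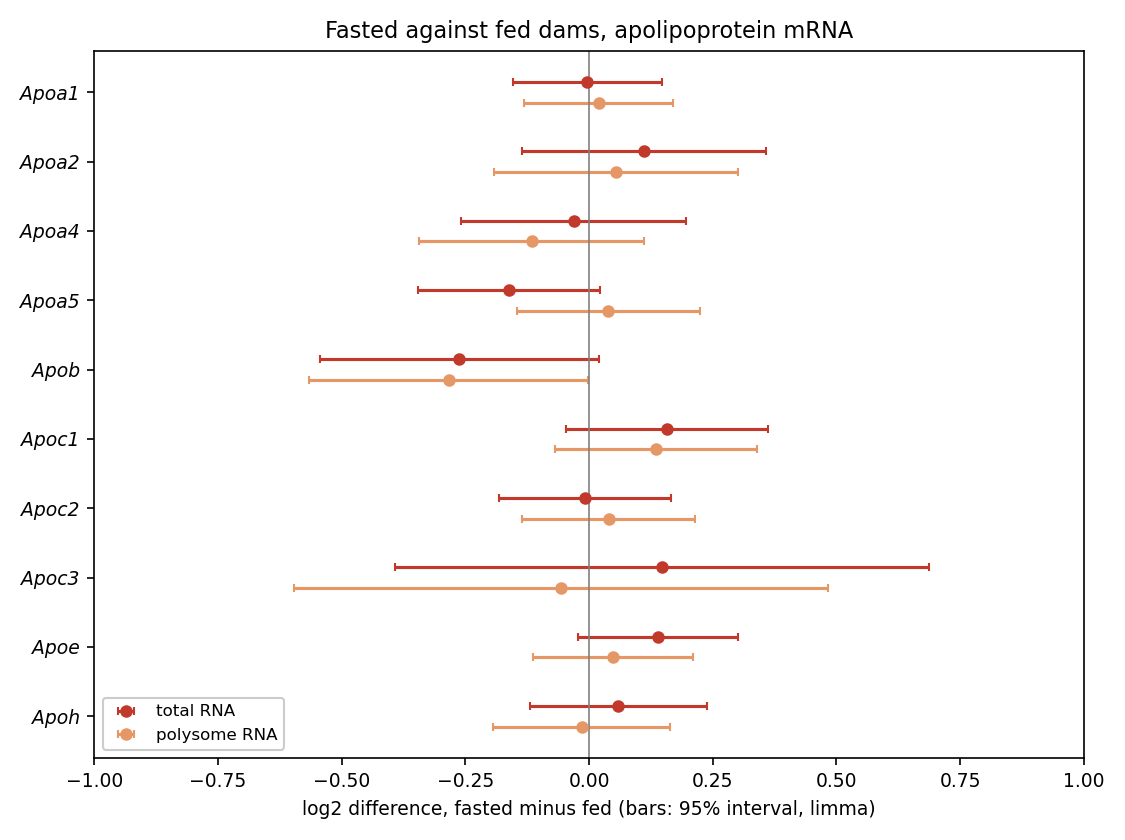
Difference between fasted and fed dams for each apolipoprotein mRNA in total RNA and in polysome RNA, in log2 units, with 95% intervals from limma. All 20 points lie between -0.28 and 0.16, and the intervals of Apoc3 are the widest.

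Polysome RNA was then set against total RNA, a comparison of how far each mRNA is found in the translated pool. Values are relative to the other RNAs on the array. Total and polysome RNA were isolated by different chemistries, and extraction and fraction cannot be told apart. In fasted dams, 6 of the 10 genes passed, 3 higher (Apoa2, Apoc1 and Apoc2) and 3 lower (Apob, Apoe and Apoh) on polysomes. This count stands against 43.7% of all genes, 25.5% higher and 18.2% lower. In fed dams, 5 passed, 2 higher (Apoa2 and Apoc1) and 3 lower (Apob, Apoe and Apoa5), against 43.5% of all genes, 24.1% higher and 19.4% lower. The share of members that passed was near that of all genes. In fasted dams every polysome array was above every total RNA array for 3 members, against 31.1% of all genes, and below for 4, against 21.5%. In fed dams the counts were 3, against 29.4%, and 4, against 23.5%. These contrasts use the same arrays as the fasting ones. The median over the 10 was -0.03 log2 in fasted and -0.04 log2 in fed dams, beside 0.05 and 0.04 log2 over all genes.

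Apob fell most on polysomes. Its polysome arrays, at 11.85 to 12.16 in fasted and 12.21 to 12.40 in fed dams, were all below its total RNA arrays, at 12.35 to 12.85 in fasted and 12.69 to 13.01 in fed dams. Polysome RNA was 1.5-fold lower in fasted dams (-0.58 ± 0.13 log2, limma adjusted p = 0.00292) and 1.47-fold lower in fed dams (-0.56 ± 0.13 log2, limma adjusted p = 0.00376). Matched by number, the polysome array was lower in 6 of 6 pairs, by 0.48 to 0.69 log2. Such counts, here and below, are descriptions, as the share of all genes with 1 sign in all 6 pairs was not counted.

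Apoa2 was the member with the largest rise. On polysomes it measured 12.67, 12.80 and 12.56 in fasted and 12.51, 12.45 and 12.91 in fed dams. In total RNA it measured 12.18, 12.41 and 12.28 in fasted and 12.08, 12.24 and 12.21 in fed dams. Every polysome array was above every total RNA array of either diet. The rise was 1.31-fold in fasted dams (0.39 ± 0.11 log2, limma adjusted p = 0.014) and 1.36-fold in fed dams (0.45 ± 0.11 log2, limma adjusted p = 0.00653). The call in fasted dams was lost without fasted total 1 (limma adjusted p = 0.0587) or fasted polysome 2 (0.053). Apoa1 was lower on polysomes in 6 of 6 pairs but did not pass, at -0.12 ± 0.070 log2 in fasted and -0.14 ± 0.070 log2 in fed dams (limma adjusted p = 0.194 and 0.122). In fed dams it passed with trend and robust priors (limma adjusted p = 0.0382) and without fed polysome 3 (0.0458).

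In the chromosome 1 cluster, Apoc1 and Apoe lay next to each other and differed in sign. Apoc1 had polysome levels of 11.21 to 11.30 in fasted and 11.05 to 11.19 in fed dams, against total RNA levels of 10.80 to 11.09 in fasted and 10.64 to 10.96 in fed dams. It rose 1.24-fold in fasted dams (0.31 ± 0.095 log2, limma adjusted p = 0.0173) and 1.26-fold in fed dams (0.33 ± 0.095 log2, limma adjusted p = 0.012). The calls were lost without fasted total 1 (limma adjusted p = 0.0836, in fasted dams) and without fed total 3 (0.061, in fed dams).

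Apoe had polysome levels of 12.64 to 12.76 in fasted and 12.56 to 12.75 in fed dams, against total RNA levels of 12.99 to 13.08 in fasted and 12.82 to 12.96 in fed dams. It fell 1.25-fold in fasted dams (-0.32 ± 0.075 log2, limma adjusted p = 0.00374) and 1.17-fold in fed dams (-0.23 ± 0.075 log2, limma adjusted p = 0.0244), and in 6 of 6 pairs. Its call in fed dams was lost without fed total 1, fed total 2 or fed polysome 2 (limma adjusted p = 0.0926, 0.0659 and 0.112) and with only the arrays compared (0.0546). Of the 10 macrophage markers, 6 fell and 1 rose on polysomes in fasted dams, against 18.2% and 25.5% of all genes. In fed dams 5 fell and 0 rose, against 19.4% and 24.1%. Most hepatocyte, endothelial and stellate cell markers fell as well, as given below. The mean level of the macrophage markers was 8.78 to 8.95 in fasted polysome against 9.17 to 9.45 in fasted total arrays. It was 8.63 to 8.75 in fed polysome against 8.99 to 9.20 in fed total arrays. Its part in the fall of Apoe was not tested.

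Apoc2 measured 12.83, 12.95 and 12.80 in fasted polysome arrays, against 12.58, 12.74 and 12.58 in fasted total arrays, and rose 1.17-fold (0.22 ± 0.081 log2, limma adjusted p = 0.0382). This call was lost with quantile normalization (limma adjusted p = 0.0945), with no filter (0.0609), with only the arrays compared (0.056) and without any 1 of 5 arrays: fasted total 1 (0.12) or 3 (0.112), or fasted polysome 1 (0.0619), 2 (0.119) or 3 (0.0512). In fed dams it measured 12.82, 12.77 and 12.87 on polysomes, against 12.75, 12.67 and 12.51 in total RNA, a difference of 0.18 ± 0.081 log2 (limma adjusted p = 0.0959; 0.0447 with trend and robust priors). It was higher on polysomes in 6 of 6 pairs. Apoc4, named for its place between Apoc2 and Apoc1 after its values were seen and not one of the 10, rose 1.64-fold in fasted and 1.65-fold in fed dams (0.71 ± 0.091 and 0.72 ± 0.091 log2, limma adjusted p = 4.61e-05 and 4.60e-05).

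On chromosome 8, Apoc3 and Apoa4 did not pass in either diet. Apoc3 differed by 0.07 ± 0.25 log2 in fasted and 0.28 ± 0.25 log2 in fed dams (limma adjusted p = 0.844 and 0.397), with pairs from -0.34 to 0.78 log2. Without both polysome arrays numbered 1, the differences were -0.26 log2 in fasted and 0.07 log2 in fed dams. Apoa4 differed by -0.03 ± 0.11 log2 in fasted and 0.05 ± 0.11 log2 in fed dams (limma adjusted p = 0.848 and 0.708). Apoa5, near the filter level, fell 1.17-fold in fed dams (-0.23 ± 0.086 log2, limma adjusted p = 0.042) and measured -0.03 ± 0.086 log2 in fasted dams (limma adjusted p = 0.797); the difference between diets did not pass (limma adjusted p = 0.867). The call was lost in 12 of 22 alternatives, with limma adjusted p up to 0.175 without fed total 1. Among the leave-one-out fits it was also lost without fed total 2 (0.0918), fed polysome 2 (0.103) or 3 (0.141), fasted total 1, 2 or 3 (0.0519, 0.0513 and 0.052) or fasted polysome 3 (0.0516).

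**Figure D3:**
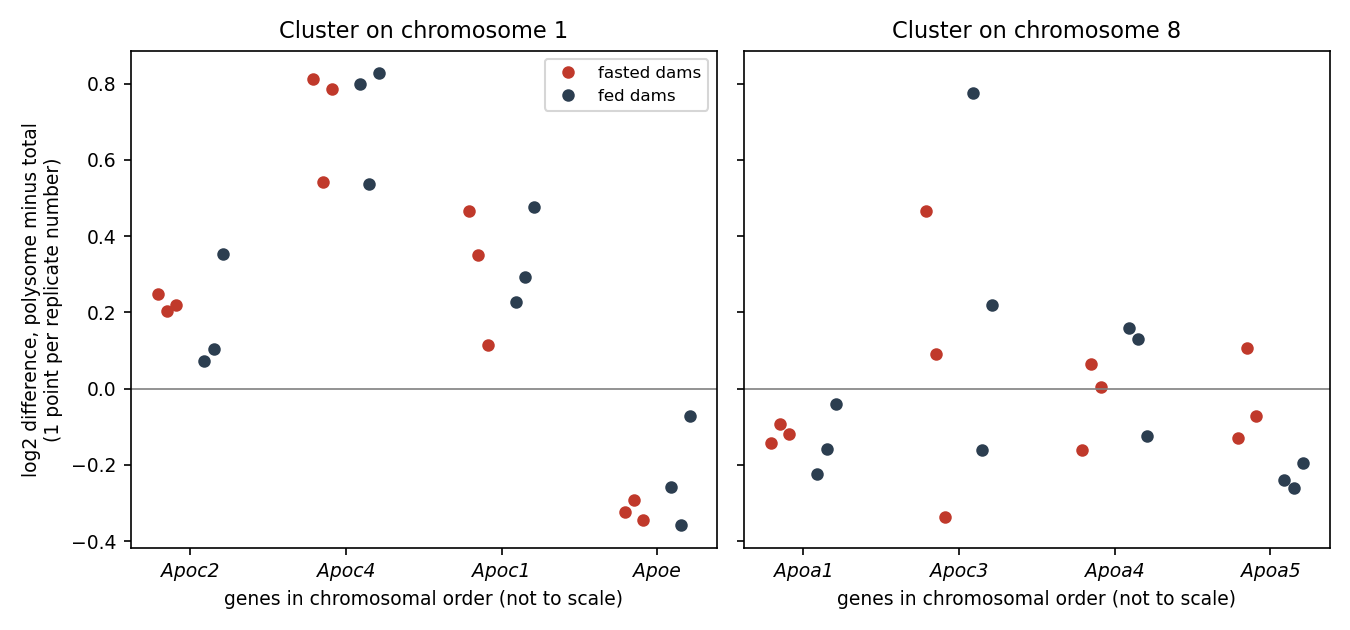
Polysome minus total RNA in log2 units for the genes of the apolipoprotein clusters on chromosomes 1 and 8, in chromosomal order, with 1 point per replicate number for fasted and for fed dams. On chromosome 1, Apoc2, Apoc4 and Apoc1 are above 0 in all 6 pairs and Apoe below 0 in all 6. On chromosome 8 only Apoa1 keeps 1 sign in all 6. The share of all genes that do so was not counted.

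Apoh measured 13.00, 13.10 and 12.98 in fasted polysome arrays, against 13.33, 13.26 and 13.34 in fasted total arrays, and fell 1.22-fold (-0.28 ± 0.083 log2, limma adjusted p = 0.0141; 0.0528 without fasted polysome 3). In fed dams it measured 12.86, 13.08 and 13.18 on polysomes, against 13.23, 13.31 and 13.21 in total RNA. All polysome arrays were lower, but the difference of -0.21 ± 0.083 log2 did not pass (limma adjusted p = 0.0577; 0.0212 without fed polysome 3 and 0.0209 with trend and robust priors).

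**Figure D4:**
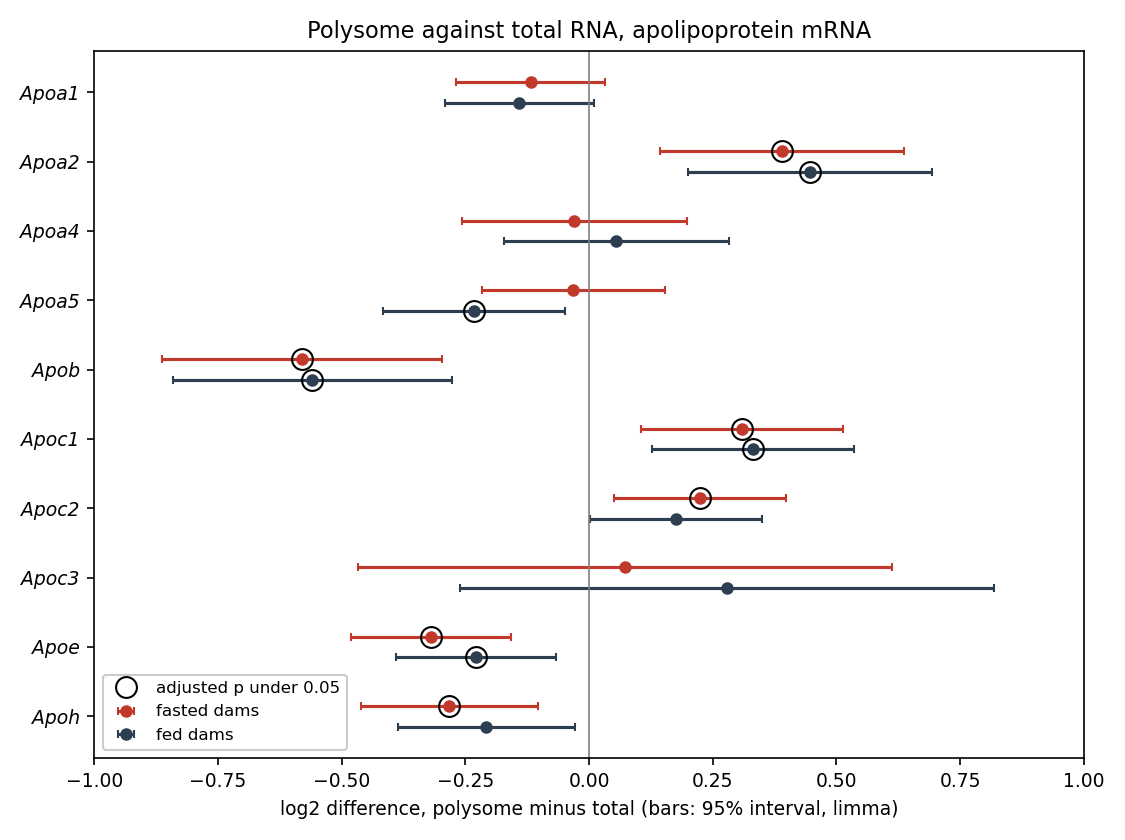
Polysome minus total RNA in log2 units for each apolipoprotein mRNA in fasted and in fed dams, with 95% intervals from limma and rings around differences that passed. Apoa2, Apoc1 and Apoc2 are to the right of 0 and Apob, Apoe and Apoh to the left in both diets.

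Other secreted proteins of the hepatocyte give the setting for these values. Over all genes, 25.5% rose and 18.2% fell on polysomes in fasted dams, and 24.1% rose and 19.4% fell in fed dams. Of 29 plasma protein genes tested, 27 fell and 0 rose on polysomes in fasted dams, and 25 fell and 0 rose in fed dams. Their median difference was -0.46 log2 in fasted and -0.40 log2 in fed dams, from -1.22 to 0.08 and from -1.75 to 0.08. Those with the smallest p were Itih1, Itih4, both hyaluronan-binding inhibitor heavy chains, and Serpinf2, the plasmin inhibitor, in fasted dams (-0.89, -0.71 and -0.72 log2), and Cp, the copper carrier ceruloplasmin, Hrg, the histidine-rich glycoprotein, and Hpx, the heme carrier hemopexin, in fed dams (-1.56, -1.75 and -0.81 log2). Apoa2 and Apoc1 in both diets, and Apoc2 in fasted dams, rose where 0 of the 29 did. This is a description of both lists, and the difference between them was not tested. The 8 hepatocyte markers are all among these 29, and 6 of them fell in fasted and 5 in fed dams. Of 7 endothelial markers, 7 fell in fasted and 5 in fed dams, and of 5 stellate cell markers 4 fell in each diet. Of 7 erythroid markers, 1 rose and 1 fell in each diet. For fasting, 3 endothelial markers rose in total RNA (Esam, Pecam1 and Fcgr2b, 1.32- to 1.52-fold). On polysomes 1 endothelial marker rose (Fcgr2b, 1.48-fold), with 2 macrophage markers (Cd68, 1.33-fold, and C1qb, 1.42-fold) and 2 stellate cell markers (Dcn, 1.68-fold, and Lrat, 1.27-fold). The part of these cells in the values above was not tested. For fasting, 0 of the 29 plasma protein genes passed by limma in total RNA and 1 rose on polysomes, Igfbp1, which binds insulin-like growth factors (1.61-fold, limma adjusted p = 0.0372).

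**Figure D5:**
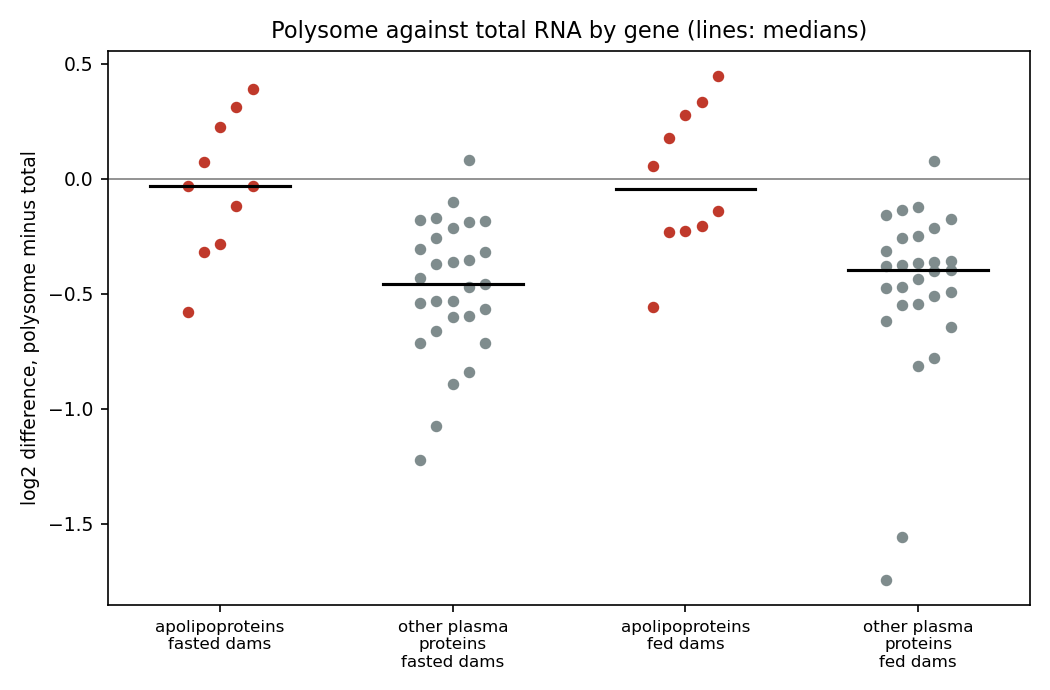
Polysome minus total RNA in log2 units for the 10 apolipoprotein genes and 29 other plasma protein genes, in fasted and in fed dams, with lines at the medians. Medians of these 10 apolipoproteins lie near 0, at -0.03 and -0.04, and those of the other plasma proteins at -0.46 and -0.40. A list of 9 further apolipoproteins and lipoprotein components, not shown, had medians of -0.93 in fasted and -0.67 in fed dams.

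Genes that act on lipoproteins were counted in the same fits. Over all genes, 1.03% passed for fasting in total and 2.01% in polysome RNA. In polysome against total RNA, 25.5% of all genes rose and 18.2% fell in fasted dams. In fed dams 24.1% rose and 19.4% fell. These shares stand beside the counts of the lists that follow. Of 9 further lipoprotein components, 0 passed for fasting by limma in total or polysome RNA. On polysomes 6 fell and 1 rose in fasted dams, and 5 fell and 1 rose in fed dams. The median difference of the 9 was -0.93 log2 in fasted and -0.67 log2 in fed dams, so medians near 0 hold for the 10 members only. The 3 falls with the smallest p in both diets were those of Clu, also called apoJ (-0.94 ± 0.071 log2 in fasted and -1.04 ± 0.071 log2 in fed dams), Apon (-1.08 ± 0.088 log2 in both diets) and Pon3, a paraoxonase (-0.93 ± 0.10 log2 in fasted and -1.03 ± 0.10 log2 in fed dams). Lcat, which esterifies cholesterol in plasma, fell by 1.01 ± 0.14 log2 in fasted and by 1.27 ± 0.14 log2 in fed dams (limma adjusted p = 7.24e-05 and 1.32e-05), and in fed dams this was the lowest difference of the list; it was added after its values were seen.

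Of 22 assembly and secretion genes, 0 passed for fasting in total RNA by limma and 1 fell on polysomes, Pcsk7, a proprotein convertase (1.27-fold, -0.35 ± 0.065 log2, limma adjusted p = 0.024). Mttp, the transfer protein that loads lipid onto apoB, measured -0.04 ± 0.10 log2 for fasting in total and -0.14 ± 0.10 log2 in polysome RNA (limma adjusted p = 0.897 and 0.463). Apobec1, which edits Apob mRNA in rat liver to give a shorter apoB, measured -0.05 ± 0.089 and 0.12 ± 0.089 log2 (limma adjusted p = 0.826 and 0.461). On polysomes, 9 of the 22 fell and 3 rose in fasted dams, and 11 fell and 2 rose in fed dams. Mttp also fell, 1.85-fold in fasted and 1.73-fold in fed dams (-0.89 ± 0.10 and -0.79 ± 0.10 log2, limma adjusted p = 1.57e-05 and 4.48e-05). Dgat1, a triglyceride synthase, fell 1.81-fold in fasted and 1.76-fold in fed dams.

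Of 10 lipase and remodelling genes, 0 passed for fasting in either fraction by limma. Lpl, the lipase that Apoc2 activates, measured 0.16 ± 0.11 log2 for fasting in total and -0.02 ± 0.11 log2 in polysome RNA (limma adjusted p = 0.511 and 0.921). Its inhibitor Angptl4 measured 0.12 ± 0.25 and 0.20 ± 0.25 log2 (limma adjusted p = 0.861 and 0.691). On polysomes 5 fell and 1 rose in fasted dams, and 4 fell and 1 rose in fed dams. Lpl fell 1.93-fold in fasted and 1.7-fold in fed dams, and Lipc, the hepatic lipase, fell 2.04-fold in fasted and 2.14-fold in fed dams. Lipa, the lysosomal acid lipase, fell 2.16-fold in fasted and 2.14-fold in fed dams. Of 11 receptor and cholesterol export genes, 0 passed for fasting in either fraction, and on polysomes 5 fell and 1 rose in fasted dams, and 4 fell and 1 rose in fed dams. Sort1, a sorting receptor for apoB particles, fell 1.77-fold in fasted and 1.82-fold in fed dams, and Abcg1, a cholesterol exporter, 1.42-fold in fasted and 1.33-fold in fed dams.

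Of 22 transcription factors that act on apolipoprotein genes, 1 rose and 0 fell with fasting in total RNA, and 2 rose and 1 fell on polysomes. Nr1d2, a REV-ERB repressor of the clock, rose 1.86-fold in total and 2.09-fold in polysome RNA (0.89 ± 0.13 and 1.06 ± 0.13 log2, limma adjusted p = 0.00998 and 0.00446). Its relative Nr1d1, known to repress Apoc3 in mice, rose on polysomes (limma adjusted p = 0.0126) to 6.87 in fasted dams, against 6.01 in fed dams, which is under the filter level. Srebf2, the regulator of cholesterol synthesis, fell 1.26-fold on polysomes (-0.33 ± 0.067 log2, limma adjusted p = 0.0325). Creb3l3, a hepatic activator of Apoa4, Apoa5 and Apoc2 in mice, measured 0.43 ± 0.12 log2 in total and 0.47 ± 0.12 log2 in polysome RNA (limma adjusted p = 0.0969 and 0.0558). Hnf4a, an activator of many apolipoprotein genes, measured 0.06 ± 0.092 and 0.05 ± 0.092 log2 (limma adjusted p = 0.795 and 0.785). On polysomes 8 of the 22 rose and 4 fell in fasted dams, against 25.5% and 18.2% of all genes. In fed dams 9 rose and 1 fell, against 24.1% and 19.4%. Creb3l3 fell 1.44-fold in fasted and 1.47-fold in fed dams (limma adjusted p = 0.0028 and 0.00189).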

How the data were processed

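Each array has 1 deposited intensity for every probe. The submitters' processing notes name RMA without a version, so the authors' intensity values are taken as RMA output. Intensities spanned 3.62 to 21344, a linear scale, and log2(value + 1) of these deposited values was analysed. Of 28826 probes, 15209 carried 1 gene symbol, for 14497 genes; the brightest probe was used for the 494 genes with several. Genes above the 40th percentile of all probes (6.07 log2) were kept, 10174 in all. A cell means model of 4 groups was fitted to the 12 arrays (limma 3.58.1 under R 4.3.3, lmFit then eBayes; degrees of freedom were 8 residual and 5.16 prior), with two-sided p-values adjusted by Benjamini-Hochberg over all genes. The number of arrays limits the precision. The fit was tested on simulated data. Figures used Python 3.11.15 and matplotlib 3.10.9.

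The members and lists were chosen with earlier results of these data known. All 10 members were named, with array values for those that passed or varied most; from each list, at most the 3 genes with the smallest p in a comparison among those that passed, and 6 fixed genes. Alternatives changed scaling, pseudocount, filter, probe summary, priors and arrays used.

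Array numbers 1 to 3 come from the labels, which do not explain them. Deviations from group means correlated at 0.15 to 0.36 in all 6 pairs of total and polysome arrays of 1 diet and number, so the numbers were taken to pair fractions within a diet, an inference from the data. Fed and fasted arrays of 1 number correlated at -0.14 to 0.25 and were not taken as pairs. The replicate block by number, an alternative used below, nevertheless fits 1 shared term to fed and fasted arrays of a number. The labels call the samples biological replicates.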

Additional observations from a re-analysis of the deposited data

How the results depend on the processing

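For both fasting comparisons and the difference between them, 0 of the 10 genes passed by limma in all 21 alternatives, among them arrays centred on their median, quantile normalization and each array left out; the smallest limma adjusted p was 0.0595, for Apob on polysomes with the replicate block. Over all genes, the same settings moved the counts that passed for fasting from 17 to 148 in total and from 11 to 755 in polysome RNA, against 105 and 205 as reported. Of the genes that passed on polysomes, 79.0% were higher in fasted dams, 87.1% after median centring and 68.4% after quantile normalization. For polysome over total, 3 to 6 members passed without single arrays in fasted dams and 3 to 6 in fed dams, and in fed dams 3 passed with only the arrays compared and 7 with trend and robust priors. Apob passed in all 22 alternatives in both diets, Apoa2 in 20 in fasted and 22 in fed dams, and Apoe in 22 and 18. Some of the 22 could not move a member's difference. Each member has 1 probe, so that averaging probes left its values as they were. Leaving out an array of the other diet changed only the shared spread and the adjustment. No called member changed sign. With the replicate block, by number or by liver, 6 members passed in fasted and 5 in fed dams, and no member's call changed. For fasting in total or polysome RNA only the block by number was used, and 0 passed. A block by liver takes up the difference between diets, so it cannot test fasting. The causes of these shifts were not tested, apart from fewer arrays in the leave-one-out fits.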

Other observations

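For the 3 apolipoproteins with the widest range of group means, the genes outside the list with the most similar pattern were found as those with the smallest root mean square difference over the 12 arrays, after each gene was centred on its own mean. For Apob, which itself deviated by 0.35 log2, these were Enpp2, Galnt1 and Maob, at 0.10, 0.11 and 0.12 log2. Enpp2 encodes autotaxin, a secreted phospholipase, and differed between fasted and fed dams by -0.24 log2 in total and -0.35 log2 in polysome RNA, beside -0.26 and -0.28 log2 for Apob. For Apoa2 they were Nicn1, Zfp358 and Mnt, at 0.10, 0.11 and 0.11 log2, beside its own 0.25 log2. For Apoc1 they were Sec14l1, Rb1 and Fzr1, at 0.084, 0.087 and 0.087 log2, beside its own 0.20 log2.

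The spread of Apoc3 between arrays of 1 group was wider than that of the other members in 3 of the groups, with an SD of 0.31 log2 in fasted total, 0.57 in fasted polysome, 0.39 in fed polysome and 0.093 in fed total arrays (n = 3 each). Other members had an SD of at most 0.26 log2 in any group.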
